A study of Drosophila melanogaster with 12 samples.

Results

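The genes described here encode the proteins of the mitochondrial ribosome in Drosophila melanogaster. They were taken as every gene whose current FlyBase symbol starts with mRpL (large subunit) or mRpS (small subunit), found through the CG number of each transcript, with the transcript row of the highest mean standing for the gene. All 73 such genes of the reference gene table were found among the 13757 genes of the deposited table, 47 of the large and 26 of the small subunit. Of these, 72 reached a mean of 10 normalized reads over all libraries and were tested among 6552 genes. The lowest of them was mRpL45, with a mean of 10.3 normalized reads. The 1 gene left out, mRpL37, had a mean of 0.73; it was reached through an older CG number, whose row spans a gene model that was later divided.

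Mitochondrial ribosomes translate the few messages of the mitochondrial genome, which in animals encode subunits of the respiratory chain and the ATP synthase. Their RNAs come from the mitochondrial genome, while all of their proteins are encoded in the nucleus, made by cytosolic ribosomes and imported. Some of these proteins have a relative in the bacterial ribosome and share its number; others belong to mitochondria and carry higher numbers. Cytosolic ribosomes are built from a separate set of genes.

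Fly heads of Canton-S background were taken after 18 h, and RNA was measured at 0, 25, 50 and 100 percent sucrose. There were 8 libraries that carry the label cabut RNAi, 2 at each concentration, from flies in which Tim-gal4, a driver with the promoter of the clock gene timeless, acts on a UAS-cbt RNAi transgene. The 4 control libraries, 1 at each concentration, came from flies that carry that UAS transgene over a wild-type chromosome (+/cbtE1-UAS-cbt RNAi) without the driver. Libraries were made with polyA selection after fragmentation, so reads come from the 3′ ends of messages. Whether replicate libraries came from separate cultures, and how many heads each pooled, is not stated in the labels. The p-values thus speak of library-to-library spread alone, part of which may be technical. A timeless driver is active in clock cells, among them photoreceptors and many glia, while whole heads were sequenced.

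Summed over the row kept for each gene, the libraries held 925822 to 1859278 reads under the cabut RNAi label and 511489 to 1333198 reads under the control label. The shallowest was the control at 100 percent sucrose. Shares of reads and total-read scaling below use these sums. The targeted gene cbt, which encodes the zinc-finger transcription factor cabut, averaged 151 ± 33.6 normalized reads in the cabut RNAi-labelled libraries (SD, n = 8) and 115 ± 22.2 in controls (SD, n = 4). Its log2 fold change of 0.38 ± 0.13 (SE) had a limma adjusted p of 0.0539, and 10 of the 26 alternative settings called it higher, with total-read scaling giving 0.59 (adjusted p 0.0037). Whether reads of the hairpin transgene add to those of cbt was not tested. This value therefore does not check the labels, and groups are named here by their labels. Photoreceptor markers summed to 38306 to 44242 normalized reads in cabut RNAi-labelled libraries and 41043 to 45768 in controls. Sums of markers of other cell types, given below, did not all overlap between labels.

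As shares of the reads in the kept rows, the mitochondrial ribosomal protein genes were a small group. Together they held 0.310 to 0.359 percent of the reads of a cabut RNAi-labelled library, with a mean of 0.335 ± 0.0178 percent (SD, n = 8). In controls they held 0.282 to 0.331 percent, with a mean of 0.305 ± 0.0202 percent (SD, n = 4). The labels overlapped, although both cabut RNAi-labelled libraries lay above the control at each concentration. Sums of normalized reads, given below, did not keep this order. The 95 percent Wilson intervals, which cover counting error only, overlapped between labels at 50 and 100 percent sucrose and not at 0 and 25 percent. At 0 and 25 percent the intervals of replicate cabut RNAi-labelled libraries did not overlap each other either. At 0 percent they ran from 0.347 to 0.371 percent and from 0.319 to 0.335 percent, and in the control from 0.290 to 0.313 percent. At 25 percent they ran from 0.341 to 0.358 percent and from 0.318 to 0.340 percent, and in the control from 0.273 to 0.291 percent. At 50 percent they ran from 0.335 to 0.359 percent and from 0.333 to 0.356 percent in the cabut RNAi-labelled libraries, and from 0.319 to 0.343 percent in the control. At 100 percent they ran from 0.303 to 0.323 percent and from 0.301 to 0.319 percent in the cabut RNAi-labelled libraries, and from 0.289 to 0.319 percent in the control.

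The share of the cytosolic ribosomal protein genes was 20.5 to 22.7 percent under the cabut RNAi label and 26.7 to 28.7 percent in controls, with no overlap. For every 100 reads of cytosolic ribosomal protein genes there were 1.39 to 1.64 reads of mitochondrial ones in cabut RNAi-labelled libraries (mean 1.52) and 1.04 to 1.24 in controls (mean 1.11), again with no overlap. Nuclear genes of the respiratory chain took 3.30 to 3.74 percent in cabut RNAi-labelled libraries and 2.73 to 2.999 percent in controls.

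**Figure D1:**
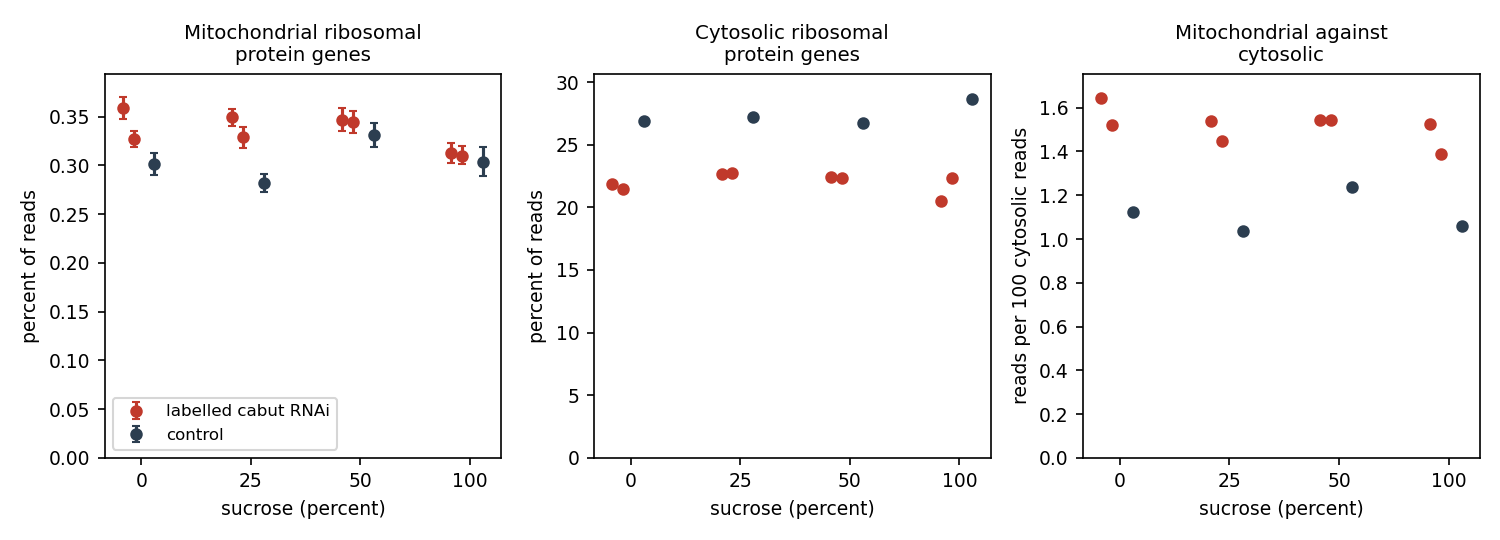
Share of each library's reads (percent) held by the mitochondrial and by the cytosolic ribosomal protein genes, and mitochondrial reads per 100 cytosolic reads, against sucrose (percent). Axes are linear from 0, with 1 point per library, by label, and 95 percent Wilson intervals (counting error only) on the mitochondrial and cytosolic shares. The mitochondrial shares of the labels overlap, while the cytosolic shares lie between 20.5 and 22.7 percent in the cabut RNAi-labelled libraries and between 26.7 and 28.7 percent in controls.

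Normalized reads differ from shares in their scale. The deposited values are reads times 1 factor per library, and these factors held the median gene level between labels: the median log2 fold change of all 6552 genes was 0.01. On that scale the tested members summed to 3058 to 3400 normalized reads in cabut RNAi-labelled libraries and 3152 to 3548 in controls. At 0 percent sucrose the control held 3381, above the 3248 and 3085 of the cabut RNAi-labelled libraries. The control was also above them at 50 percent (3548 against 3298 and 3400) and 100 percent (3478 against 3058 and 3061). At 25 percent it was below them (3152 against 3241 and 3372). When libraries were instead scaled by their total reads, the median of all genes moved to 0.21 and that of the members to 0.16. Relative to the median gene the members lay at -0.05 under both scalings, and changes below are therefore changes relative to the bulk of the genes.

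The comparison of labels asked which of these genes differed between heads of the 2 genotypes over all sucrose concentrations. A pair of members, mRpS5 and mRpL27, was higher in the cabut RNAi-labelled libraries, and mRpL39, mRpS26, mRpL49 and mRpL46 were lower on the deposited scale, calls that total-read scaling did not keep (limma, adjusted p under 0.05). These 6 are 8.33 percent of the 72 tested, against 15.5 percent of all genes tested. By direction, 2 of 72 were higher, against a background of 6.78 percent, and 4 of 72 were lower, against 8.71 percent. Among all genes with a mean of 10 to 100 normalized reads, where most members lie, 10.3 percent passed. The median log2 fold change of the members was -0.05, with 34 above 0 and 38 below, and a range of -0.62 to 0.85. For 42 of the 72 the 95 percent interval lay within 1.5-fold in either direction, so a larger difference is outside the interval for these and inside it for the other 30.

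The count rests on the scaling. With libraries scaled by total reads, 12 members were called higher (mRpL10, mRpL14, mRpL17, mRpL21, mRpL23, mRpL27, mRpL45, mRpS5, mRpS6, mRpS18C, mRpS23 and mRpS25) and 0 lower, beside 1327 higher and 305 lower of all genes. The calls of mRpS5 and mRpL27 are common to both scalings.

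**Figure D2:**
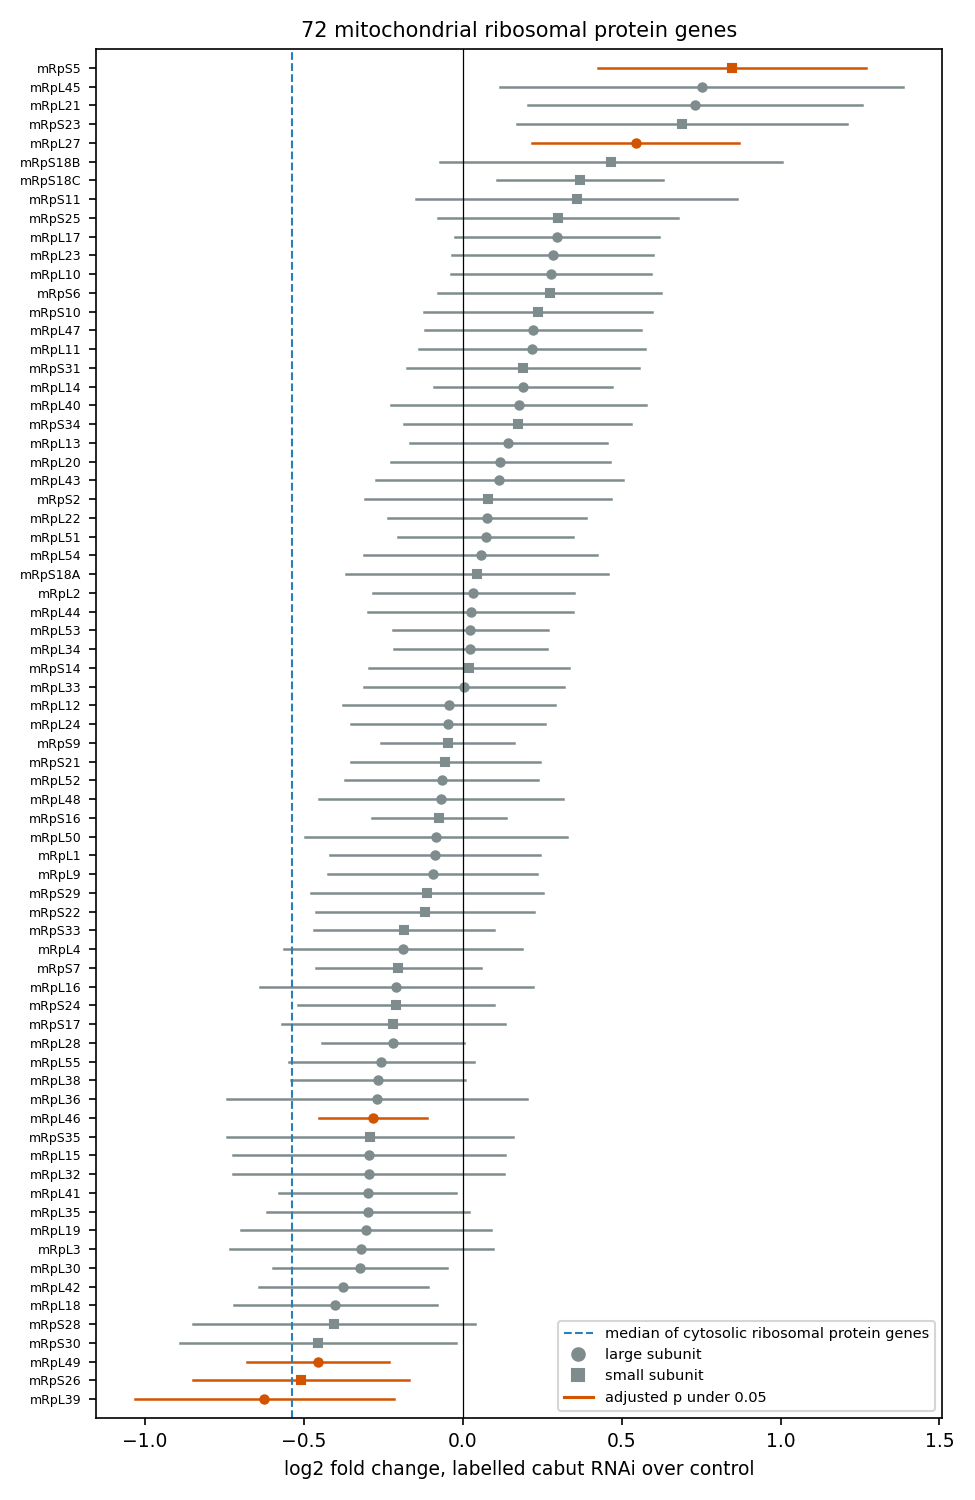
Log2 fold change (labelled cabut RNAi over control) of each of the 72 tested mitochondrial ribosomal protein genes with its 95 percent interval from limma, ordered by size; circles are large-subunit and squares small-subunit genes, orange marks a limma adjusted p under 0.05, and the dashed line is the median of the cytosolic ribosomal protein genes. Values run from -0.62 for mRpL39 to 0.85 for mRpS5 on the deposited scale (with total-read scaling 12 members were called higher and 0 lower). The interval of 51 members lies wholly above the cytosolic median, and so does the median of all genes tested (0.01).

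Both members called higher on the deposited scale carry a number of the bacterial ribosome; of the 12 called higher with total-read scaling, 9 do and 3 (mRpL45, mRpS23 and mRpS25) do not. mRpS5 (CG40049, 3L:24530430-24536634 in build dm3) encodes the relative of bacterial S5, which lies near the mRNA entry channel of the small subunit. It held 30.7 to 41.2 normalized reads in the cabut RNAi-labelled libraries, with a median of 35.05. The controls held 24.3, 28.5, 21.1 and 8.95 at 0, 25, 50 and 100 percent sucrose. Every cabut RNAi-labelled library lay above every control. Its log2 fold change was 0.85 ± 0.20 (SE), or 1.80-fold, with a limma adjusted p of 0.0058. The control at 100 percent sucrose rests on 4 reads; without that library the log2 fold change was 0.50 and the adjusted p 0.0669.

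mRpL27 (CG33002, 2L:4459004-4459532) encodes the relative of bacterial L27, a protein that reaches toward the peptidyl transferase centre. It held 36.96 to 51.3 normalized reads in cabut RNAi-labelled libraries, with a median of 47.4. The controls held 24.3, 28.5, 42.1 and 29.1 at 0, 25, 50 and 100 percent sucrose. The labels overlapped through the control at 50 percent. The log2 fold change was 0.54 ± 0.16 (limma adjusted p 0.0210). It lost the call without the control at 0 percent (0.41, adjusted p 0.128), at 25 percent (0.52, adjusted p 0.0662) or at 100 percent (0.53, adjusted p 0.0785), and with DESeq2 on the recovered reads (0.55, adjusted p 0.0939).

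The 4 members called lower on the deposited scale carry numbers above those of the bacterial ribosome, and with total-read scaling 0 members were called lower. mRpL49 (CG4647, X:12801139-12801877), a protein found in mitochondrial ribosomes, held 57.2 to 77.0 normalized reads in cabut RNAi-labelled libraries, with a median of 69.0. The controls held 96.1, 89.0, 85.5 and 100.7 at 0, 25, 50 and 100 percent. Every control lay above every cabut RNAi-labelled library. The log2 fold change was -0.46 ± 0.11 (limma adjusted p 0.0054), and the call held without any 1 library, where values ran from -0.53 to -0.42. With total-read scaling it was -0.25 (adjusted p 0.110).

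mRpL46 (CG13922, 3L:1777441-1778347), a large-subunit protein with a Nudix-like fold, had the most reads of any member, with 136 to 593 per library, and the smallest standard error among the called members. It held 236.5 to 300.0 normalized reads in cabut RNAi-labelled libraries, with a median of 280.6. The controls held 344.5, 314.7, 363.0 and 304.4 at 0, 25, 50 and 100 percent. The labels did not overlap, but the gap was narrow, with 300.0 under the cabut RNAi label and 304.4 in the nearest control. The log2 fold change was -0.28 ± 0.08 (limma adjusted p 0.0205), a 1.22-fold difference. The call was lost without the control at 0 (adjusted p 0.0691), 50 (adjusted p 0.0803) or 100 percent sucrose (adjusted p 0.0527). It was also lost with DESeq2 (adjusted p 0.0637), limma without the trend (adjusted p 0.0862) and total-read scaling (-0.07, adjusted p 0.551).

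mRpL39 (CG17166, 3L:14991073-14992764), whose protein is related to threonyl-tRNA synthetases, held 14.1 to 29.4 normalized reads in cabut RNAi-labelled libraries, with a median of 23.1. The controls held 41.0, 39.4, 31.0 and 29.1 at 0, 25, 50 and 100 percent. The labels overlapped by 1 library, the 29.4 of a cabut RNAi-labelled library without sucrose lying above the lowest control. The label difference was -1.05 on the log2 scale at 25 percent sucrose and -0.07 at 100 percent. The log2 fold change was -0.62 ± 0.20 (limma adjusted p 0.0350). The call was lost without any 1 of 6 libraries: the controls at 0 (adjusted p 0.119), 25 (0.173) or 50 percent (0.0928), or, under the cabut RNAi label, the first at 0 percent (0.0710), the second at 25 percent (0.0594) or the first at 50 percent (0.0586). It was also lost with DESeq2 (adjusted p 0.0725), limma without the trend (adjusted p 0.0619), no filter on the mean (adjusted p 0.0637) and total-read scaling (-0.42, adjusted p 0.133).

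mRpS26 (CG7354, 3L:18099681-18100602), a small-subunit protein with no bacterial relative, held 19.7 to 34.7 normalized reads in cabut RNAi-labelled libraries, with a median of 25.4. The controls held 38.4, 33.6, 42.1 and 35.8 at 0, 25, 50 and 100 percent. The labels overlapped through 1 cabut RNAi-labelled library without sucrose, at 34.7. The log2 fold change was -0.51 ± 0.16 (limma adjusted p 0.0392). The call was lost without any 1 of 7 libraries: the control at 50 (adjusted p 0.239) or 100 percent (0.151), the second cabut RNAi-labelled library at 0 (0.0612), 25 (0.0579) or 100 percent (0.0734), or either at 50 percent (0.0619 and 0.0712). It was also lost with edgeR (-0.46, adjusted p 0.0884), DESeq2 (adjusted p 0.204), no filter on the mean (adjusted p 0.0642) and total-read scaling (-0.30, adjusted p 0.208).

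**Figure D3:**
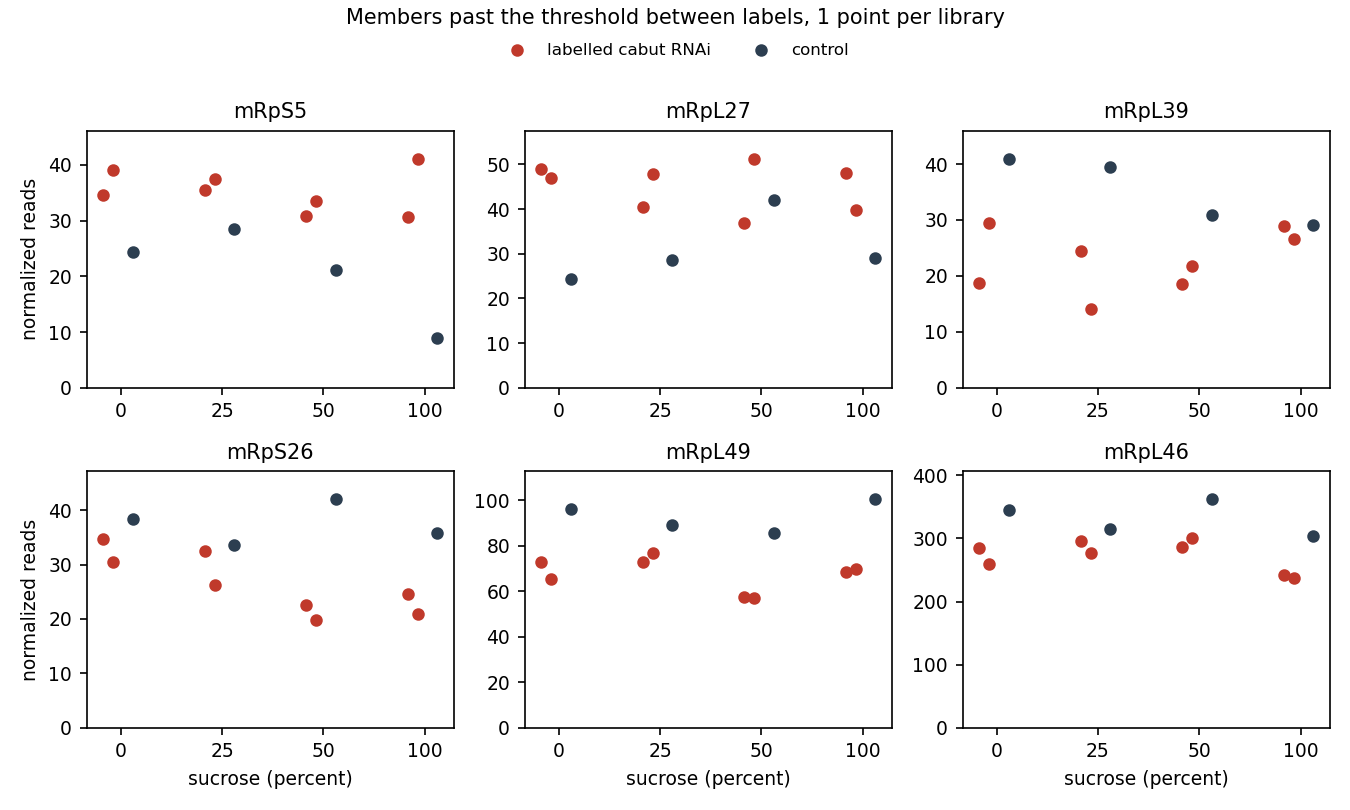
Normalized reads of the 6 members past the threshold between labels (linear axes from 0) against sucrose (percent), 1 point per library, by label. The labels do not overlap for mRpS5, where cabut RNAi-labelled libraries lie at 30.7 or above and the controls at 28.5 or below, nor for mRpL49 and mRpL46, where the controls are higher on the deposited scale; their calls were lost with total-read scaling.

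For 3 of the 72 members, mRpS5, mRpL49 and mRpL46, the labels did not overlap, which is 4.17 percent, against 8.17 percent of all genes tested (3.14 percent higher and 5.02 percent lower). The label difference had 1 sign at all 4 concentrations in 23 members (9 higher and 14 lower), or 31.9 percent, against 29.1 percent of all genes. The median label difference of the members was -0.07 at 0 percent sucrose, 0.11 at 25 percent, -0.04 at 50 percent and -0.14 at 100 percent. These values come from 1 control library each, and the median over all libraries changed sign, to 0.05, without the control at 100 percent sucrose.

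Several members had fold changes as large as the called ones but wider spreads. mRpL45, mRpL21 and mRpS23 had log2 fold changes of 0.75 ± 0.30 (adjusted p 0.110), 0.73 ± 0.25 (adjusted p 0.0561) and 0.69 ± 0.25 (adjusted p 0.0682, limma), at means of 12.1, 23.3 and 18.9 normalized reads under the cabut RNAi label and 6.75, 13.5 and 12.4 in controls. mRpL42, at 64.1 ± 8.84 normalized reads in cabut RNAi-labelled libraries (SD, n = 8) and 84.1 ± 16.2 in controls (SD, n = 4), missed the threshold with a limma adjusted p of 0.0507. These 4 were chosen after their values were seen. mRpL45 overlaps the row of loco (mean 18.03 normalized reads) and mRpS23 that of Polr2C (mean 25.35), so the reads of both members are uncertain.

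Within the ribosome, the large-subunit genes had a median log2 fold change of -0.06, with 1 called higher and 3 lower of 46 tested. The small-subunit genes had a median of -0.01, with 1 called higher and 1 lower of 26. The 42 tested genes with a bacterial number (up to L36 and S21) had a median of 0.01, with 2 higher and 0 lower on the deposited scale and 9 higher and 0 lower with total-read scaling. The 30 numbered above it had a median of -0.10, with 0 higher and 4 lower on the deposited scale and 3 higher and 0 lower with total-read scaling. Of all genes, 6.78 percent were higher and 8.71 percent lower on the deposited scale, and 20.3 and 4.66 percent with total-read scaling. The 4 of 30 called lower are 13.3 percent. The counts are small and the split was described with the values known. No test of a difference between these subgroups was made.

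The members were spread over all the large chromosome arms, with 12 genes on 2L, 12 on 2R, 17 on 3L, 21 on 3R (with the untested mRpL37) and 11 on X. Of the 6 called members 4 lay on 3L (mRpS5 higher, and mRpL39, mRpS26 and mRpL46 lower), 1 on 2L and 1 on X. The counts are small, and the share of all genes called on each arm is not given here. Many members are neighbours or partners of other genes: 37 of the 72 tested overlap the row of another gene. For 21 of them that gene has a mean of at least 0.5 times their own. Reads of such pairs could not be told apart because the use of strand is not given in the sources used here. The 6 members called on the deposited scale are all among the 35 without an overlap. Of those called higher with total-read scaling, mRpL10, mRpL17, mRpL23, mRpL45 and mRpS23 overlap another gene. mRpL53 had the same reads as the overlapping gene CG33155 in every library, so its value is uncertain.

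Most cytosolic ribosomal protein genes fell. Of 81 tested, 78 were called lower in the cabut RNAi-labelled libraries and 0 higher, against 8.71 and 6.78 percent of all genes. Their median log2 fold change was -0.54. With total-read scaling 68 were lower and 1 higher, against 4.66 and 20.3 percent of all genes. RpS21, a small-subunit protein, averaged 1858 normalized reads in cabut RNAi-labelled libraries and 3389 in controls, a log2 fold change of -0.87 ± 0.07 (SE). RpL11 (-0.87), RpLP1, a stalk protein (-0.83), and RpS18 (-0.76) were also among the 4 largest changes. Of the 72 mitochondrial members, 71 had a log2 fold change above that cytosolic median, mRpL39 being the exception. The 95 percent interval lay wholly above the cytosolic median for 51 members and held it for 21. The median of all 6552 genes tested, 0.01, also lay above it, so these counts do not by themselves set the members apart from other genes. The difference between the mitochondrial and cytosolic medians was 0.49 on the log2 scale as deposited and also 0.49 with total-read scaling. It was 0.08 with quantile normalization, under which 25 cytosolic genes were called lower and their median was -0.11.

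**Figure D4:**
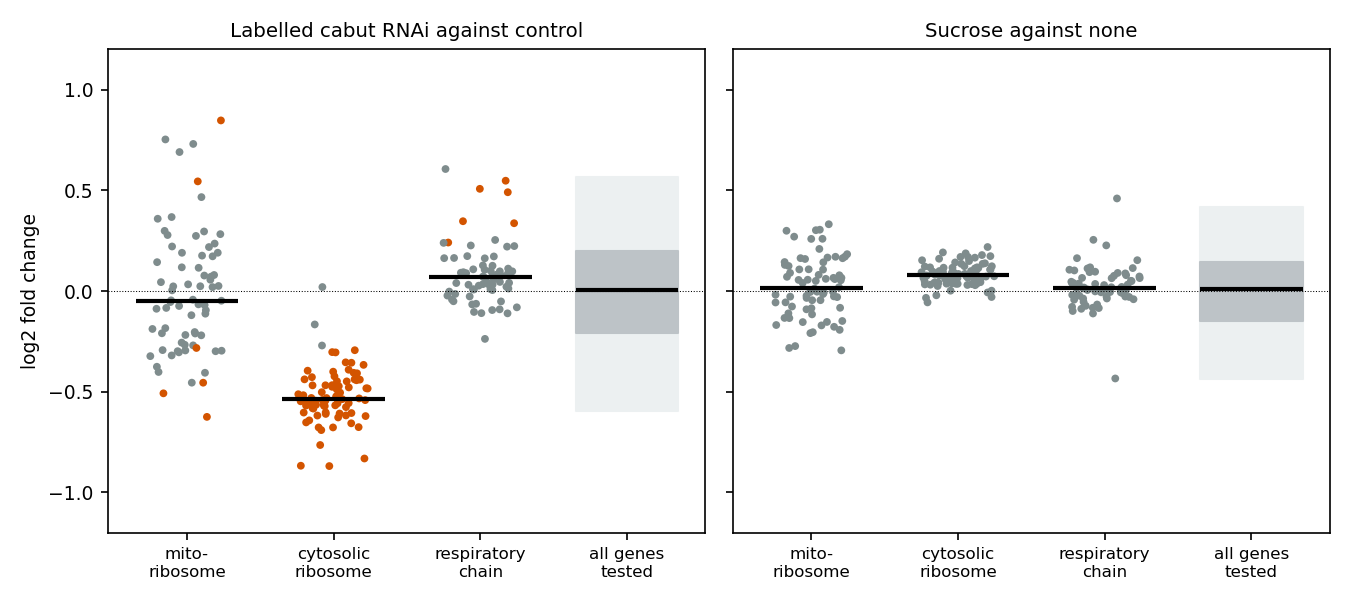
Log2 fold changes of the mitochondrial ribosomal, cytosolic ribosomal and nuclear respiratory chain genes in the label comparison and in the sucrose comparison, 1 point per gene. Orange points have a limma adjusted p under 0.05, black bars are medians, and grey bands show the 5 to 95 and 25 to 75 percentiles of all genes tested; in the label comparison the medians on the deposited scale are -0.05, -0.54 and 0.07, and in the sucrose comparison no gene of the 3 lists is coloured.

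Nuclear genes of the respiratory chain had 6 of 66 called higher and 0 lower, with a median log2 fold change of 0.07. These are 9.09 percent, near the 6.78 percent of all genes called higher. With total-read scaling 44 were higher and 0 lower, with a median of 0.28, beside 20.3 percent of all genes called higher. COX7AL2, a cytochrome c oxidase subunit, rose by 0.55 ± 0.13 on the log2 scale (limma adjusted p 0.0059), ND-18, a complex I subunit, by 0.51 ± 0.11 (0.0020), SdhD, a membrane anchor of succinate dehydrogenase, by 0.49 ± 0.09 (0.00083), and Cyt-c-p, the electron carrier cytochrome c, by 0.35 ± 0.09 (0.0135). The call of Cyt-c-p was lost without the control at 50 percent (adjusted p 0.0536) or at 100 percent sucrose (adjusted p 0.0756), with limma without the trend (adjusted p 0.0761) and with no term for concentration (adjusted p 0.0503).

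The 3 mitochondrial ribosomal proteins under other symbols did not pass the test. tko, the mitochondrial S12 protein whose mutants are sensitive to mechanical shock, had 74.0 ± 6.99 normalized reads in cabut RNAi-labelled libraries (SD, n = 8) and 87.5 ± 11.8 in controls (SD, n = 4), a log2 fold change of -0.23 ± 0.11 (limma adjusted p 0.161). bonsai, the mitochondrial S15 protein, was at -0.18 ± 0.15 (adjusted p 0.503; 0.026 with total-read scaling), and CRIF at 0.27 ± 0.15 (adjusted p 0.274; called higher with total-read scaling, 0.48 and adjusted p 0.0318).

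Of the translation factors that work with this ribosome, 1 of 5 tested was lower. Of all genes tested, 8.71 percent were called lower and 15.5 percent in either direction. mEFTu2, a Tu-type elongation factor that brings aminoacyl-tRNA to the ribosome, had 42.4 ± 6.42 normalized reads in cabut RNAi-labelled libraries (SD, n = 8) and 62.0 ± 16.5 in controls (SD, n = 4), a log2 fold change of -0.51 ± 0.15 (limma adjusted p 0.0286). The call was lost with DESeq2 (adjusted p 0.0843), with limma without the trend (adjusted p 0.0652), with total-read scaling (-0.30, adjusted p 0.173), without the control at 50 percent (0.148) or 100 percent sucrose (0.175), or without the second cabut RNAi-labelled library at 50 percent (0.0557) or 100 percent (0.0553). None of 8 mitochondrial aminoacyl-tRNA synthetase genes and none of 11 genes for mitochondrial DNA and RNA upkeep passed the limma test. At an unadjusted p under 0.05 there were 0 and 3 of them, and the share of all genes at that cut is not given here. edgeR and DESeq2 called 0 in both lists. With total-read scaling PheRS-m (0.42, limma adjusted p 0.0226) and mTerf5 (0.75, adjusted p 0.0336), named by the smallest p of their lists, passed.

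Markers of several cell types also differed between labels, where 6.78 percent of all genes tested were called higher and 8.71 percent lower. The lists are short, so their counts are small. Summed neuronal markers held 163 to 223 normalized reads in cabut RNAi-labelled libraries and 230 to 287 in controls, with 2 of 3 tested lower (Syt1 and nSyb). Glial markers summed to 1859 to 2283 in cabut RNAi-labelled libraries and 1757 to 1864 in controls, with 3 of 5 higher (Eaat1, alrm and nrv2). Muscle markers summed to 1311 to 2403 in cabut RNAi-labelled libraries and 1325 to 1411 in controls, with 3 of 6 higher (Mhc, Prm and wupA). Fat body markers summed to 24344 to 57561 in cabut RNAi-labelled libraries and 51513 to 73497 in controls, with 1 of 5 higher (Lsp2) and 3 lower (the yolk protein genes Yp1, Yp2 and Yp3), and Fbp1 was at 0 in every library. Hemocyte markers summed to 175 to 224 in cabut RNAi-labelled libraries and 159 to 177 in controls, with 1 of 4 higher (Hml), and photoreceptor markers had 2 of 10 higher (Rh5 and ninaC) and 2 lower (Rh3 and Rh4). Their part in the changes of the ribosomal genes was not tested. In heads measured whole, fewer cells of a type and less RNA per cell cannot be told apart.

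The comparison of sucrose with none asked whether these genes respond to feeding on sugar. None of the 72 members passed, against 2.15 percent of all genes tested and 1.09 percent of those with a mean of 10 to 100. No member had an unadjusted p under 0.05 with limma, and edgeR and DESeq2 on the recovered reads and an F test over the 4 concentrations also called 0. The median log2 fold change of the members was 0.02, with 37 above 0 and 35 below, and a range of -0.29 to 0.33. For 52 of 72 the 95 percent interval lay within 1.5-fold. Cytosolic ribosomal genes (median 0.08) and respiratory chain genes (median 0.01) had 0 of 81 and 0 of 66 called with limma, and 0 with edgeR and DESeq2. With limma 4 and 3 of them had an unadjusted p under 0.05, a cut for which the share of all genes is not given here. COX7AL2 passed with the replicate number as a block (0.46, adjusted p 0.0421) and without the first cabut RNAi-labelled library at 25 percent sucrose (0.54, adjusted p 0.0206), and the F test over the 4 concentrations called 1 cytosolic gene, RpL27.

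The members with the smallest p-values in that comparison show how far they moved. mRpL24, a large-subunit protein with a bacterial relative, held 43.4 to 74.5 normalized reads in the 9 libraries with sucrose (median 57.5) and 38.2, 50.5 and 47.4 in the 3 without. The groups overlapped, and its log2 fold change was 0.30 ± 0.16 (limma adjusted p 0.517). mRpL55 held 31.9 to 49.6 with sucrose (median 36.5) and 49.8, 37.6 and 53.8 without, at -0.28 ± 0.15 (adjusted p 0.541). mRpL41 held 40.5 to 64.4 with sucrose (median 52.6) and 36.4, 42.3 and 53.8 without, at 0.26 ± 0.14 (adjusted p 0.560). Both also overlapped between groups.

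Whether the sucrose response differed between labels was tested as the difference of the 2 responses, in which the control at 0 percent sucrose is a single library. None of 72 members passed, against 0.229 percent of all genes, and edgeR and DESeq2 called 0. With limma 8 members had an unadjusted p under 0.05. The 0.229 percent is at the adjusted threshold and is no background for that count. Only 3 of the 72 intervals lay within 1.5-fold, so this comparison was imprecise. Within each label 0 of 72 members passed for sucrose, against 1.94 percent of all genes in the cabut RNAi-labelled libraries and 1.16 percent in controls.

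mRpL18, a relative of the bacterial protein that binds 5S rRNA, had the smallest p of the difference. With sucrose it held 38.0 to 59.3 normalized reads in 6 cabut RNAi-labelled libraries and 57.0 to 91.8 in 3 controls; without sucrose it held 57.8 and 63.4 under the cabut RNAi label and 47.4 in the control. The difference of responses was -0.998 ± 0.25 on the log2 scale (limma adjusted p 0.251). It overlaps the row of ox, a gene with a mean of 372 normalized reads, so its reads are uncertain. mRpS17 was at -1.001 ± 0.28 (adjusted p 0.284). It held 33.9 to 45.4 normalized reads with sucrose and 48.9 and 41.2 without under the cabut RNAi label, while controls held 48.7 to 63.2 with sucrose and 30.7 without. mRpS21 was at 0.71 ± 0.26 (adjusted p 0.381), with 46.4 to 75 with sucrose and 47.1 and 44.3 without under the cabut RNAi label, while controls held 57.0 to 58.2 with sucrose and 69.2 without.

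Among the 9 libraries with sucrose, a slope over 25, 50 and 100 percent, per step of concentration, was fitted to ask whether the genes follow the amount of sugar. None of the 72 members and none of the 6552 genes passed (background 0.0 percent). With limma 2 members had an unadjusted p under 0.05, a cut for which the share of all genes is not given here. The slope intervals of 70 of 72 members lay within 1.5-fold per step. edgeR and DESeq2 also called 0 members, with 6 and 1 genes called in all. The smallest p-values belonged to mRpL1 (-0.26 ± 0.11), mRpL15 (-0.31 ± 0.14) and mRpS5 (-0.27 ± 0.14), none of which passed. mRpL15 overlaps the row of Psn, a gene with a mean of 41.23 normalized reads, so its reads are uncertain. mRpL1, a relative of the bacterial L1 stalk protein, held 45.9 and 33.8 normalized reads at 25 percent, 40.0 and 37.5 at 50 percent and 23.7 and 24.4 at 100 percent sucrose in cabut RNAi-labelled libraries, and 33.6, 39.6 and 29.1 at those concentrations in controls. The slope of mRpS5 was -0.06 without the control at 100 percent sucrose.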

How the data were processed

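Normalized values of 21081 transcript rows, a signal that the authors deposited with 1 column for each of the 12 libraries, were used. The submitters' processing notes list Bowtie, TopHat and dm3, with no version. How reads were counted, whether strand was used and how values were scaled is not given in the sources used here. All values (100.0 percent, tolerance 0.01) were whole multiples of 1 step per library, so reads were recovered by division. A gene was its row with the highest mean. Coordinates count from 1 in dm3.

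Genes with a mean of at least 10 were fitted with limma 3.58.1 (intensity trend, R 4.3.3) on log2(value + 1), which understates changes of low genes, with Benjamini-Hochberg adjustment over 6552 genes and a threshold of 0.05. A single model held label and sucrose over all 12 libraries, the difference of responses was a contrast of group means over the same libraries, and the dose slope was fitted on the 9 libraries with sucrose. With 1 control library per concentration, the controls' spread was taken to be that of the other groups. edgeR 4.0.16 and DESeq2 1.42.0 were run on recovered reads; for labels edgeR called 367 genes higher and 541 lower, and DESeq2 256 and 446, against 444 and 571 with limma. Tests were tried on simulated reads. Scaling by total reads was added after the data were seen.

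The members and lists were chosen with earlier results of these data known. Genes were named by a rule: cbt, up to 12 called members in each direction for labels, the 3 members with the smallest p where none was called, and up to 4 called genes, or that with the smallest p, of the other lists. For the lists, mtIF3, mEFG2, mtRF1, mtTFB1, PolG2 and LRPPRC2 were not matched. Chi-square per degree of freedom between replicates was 2.73 to 5.75, above counting noise, and each library was counted once.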

Additional observations from a re-analysis of the deposited data

Results flagged for a closer look

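Of 32 sets of values examined for an outlying library (14 named members and 2 summed measures in each label), 1 held one; chance flags about 1 in 20 groups not chosen by their values. mRpS21, a small-subunit gene, was at 69.2 normalized reads in the control at 0 percent sucrose, apart from the controls with sucrose, which held 57.0 to 58.2. The gap was 0.901 of the range of the 4 controls, against a critical value of 0.829. This library is the only control without sucrose. mRpS21 was named for its small p in the difference of responses, which already sets this library against the controls with sucrose, so the gap is no separate evidence and the rate above does not apply to it. The gene overlaps the row of CG8870, which had a mean of 0.0 normalized reads.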

How the results depend on the processing

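For labels, 2 members were higher and 4 lower. The lower count was 2 without a filter on the mean and 2 without the trend; the higher count was 1 with a minimum mean of 50 (21 members tested) and 4 with robust limma; DESeq2 gave 1 and 1; total-read scaling, added after the data were seen, gave 12 and 0. Leaving out 1 library gave 1 to 4 higher (4 without the first cabut RNAi-labelled library at 100 percent sucrose, 1 without the control at 0 percent) and 1 to 5 lower (1 without the control at 50 percent). No count moved in the sucrose comparison or dose trend; for the difference of responses, no filter gave 1 lower (mRpL18, adjusted p 0.0435), and the fit without the control at 0 percent could not be made. With summed transcript rows, members held 0.310 percent of reads in cabut RNAi-labelled libraries and 0.281 percent in controls. The members' median changed sign for labels (-0.05) with total-read scaling (0.16) and without the control at 100 percent sucrose (0.05), and for the difference of responses (0.04) with total-read scaling (-0.05), without the second cabut RNAi-labelled library at 0 percent (-0.03) and without the control at 25 percent (-0.06). It lay near 0 and on both sides of it for sucrose (-0.03 to 0.06) and dose (-0.07 to 0.02). Named genes marked as changing sign were bonsai for labels (0.026 with total-read scaling, adjusted p 0.917) and CRIF for sucrose (-0.012 without the control at 0 percent, adjusted p 0.996). The causes were not tested. Replicate numbers did not pair the libraries (correlations -0.11 to 0.14 over 6 pairs); with the replicate number as a block, 3 members were higher and 4 lower for labels, and 0 in the other comparisons. Depth limits the members: 2 to 593 reads per library, median 41.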
